A study of Caenorhabditis elegans with 12 samples.

Results

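The genes described here encode building blocks of the meiotic chromosome in *Caenorhabditis elegans*: the synaptonemal complex proteins *syp-1*, *syp-2*, *syp-3* and *syp-4*, the axis proteins *him-3*, *htp-1* and *htp-3*, the meiotic cohesin subunit *rec-8*, and the axis-bound cohesion protector *lab-1*. They were chosen by name, and all 9 were measured, among 17085 genes that had at least 1 probe set assigned to a single gene. The 9 genes had 10 such probe sets, 2 of them for *him-3*. The only probe sets of *syp-2*, *syp-3* and *rec-8*, and 1 of those for *him-3*, are of the shared type. The probes of that type may match more than 1 transcript. Transcript levels were measured on 12 Affymetrix GeneChip arrays, which read the brightness of probe sets bound by labelled RNA, and are given as log2 values, so that a difference of 1 is a doubling. The RNA came from germlines dissected from hermaphrodites 24 hr after the L4 larval stage at 20°, cut so that they ran from the mitotic tip to late pachytene, with 50 to 70 germlines pooled per sample and amplified once. There were 3 samples of each of 4 genotypes: wild type (strain N2), *lin-54(n3423)*, *mes-4(ok2326)* and a double mutant with both of these alleles. The *lin-54* allele removes most of the open reading frame, whereas the *mes-4* allele deletes much of the SET domain and still makes a truncated transcript. Mutants were homozygous offspring of heterozygous mothers, and so began life with maternal product.

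In meiotic prophase each pair of sister chromatids is held by cohesin, whose meiotic kleisins include REC-8. The chromatids are organised along a protein axis built of HORMA domain proteins such as HTP-3, HIM-3 and HTP-1. The SYP proteins then polymerise between the axes of paired homologs and form the central region of the synaptonemal complex, which is fully assembled by pachytene, a stage that fills much of the dissected tissue. LIN-54 is the DNA-binding subunit of the Rb-related DRM complex, and MES-4 is a histone methyltransferase that marks genes expressed in germ cells.

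The targeted genes were read first. The *lin-54* level was 10.81 ± 0.04 (SD, n = 3) in wild type and 10.78 ± 0.10 in *mes-4*, against 6.83 ± 0.81 in *lin-54* and 6.60 ± 0.24 in the double mutant. The *mes-4* level fell by 0.73 in the *mes-4* mutant relative to wild type (SE 0.10, limma q = 0.00101). The double mutant had 0.38 more of it than *mes-4* did (q = 0.0310). Array medians lay between 5.81 and 5.93, and arrays of 1 genotype correlated at 0.989 to 0.996 over probe sets. Of 8 germ cell markers, including *glp-1*, *gld-1* and *pgl-1*, none was called in any comparison apart from *cgh-1*, which encodes an RNA helicase of germ granules and fell by 0.42 in the double mutant relative to wild type (q = 0.0411). Markers of muscle, hypodermis, neurons and intestine had no call in any comparison. The summed linear level of 6 intestine markers nevertheless differed widely between samples of 1 genotype, from 1853 in *mes-4* replicate 3 to 17200 in *mes-4* replicate 1, and was 1517 to 2023 in the double mutant. All 6 had a lower mean in the double mutant than in *lin-54* without passing the test (median difference -0.66), and their median against *mes-4* was -0.80.

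Of the 9 genes, *syp-1* changed most. It was close to doubled in both genotypes that lacked LIN-54, and it did not pass the test in *mes-4*. *syp-3* was higher when both proteins were missing than when MES-4 alone was, and *htp-1* was at its lowest in the double mutant, under both wild type and *lin-54*. The other 6 genes passed the test in no comparison.

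**Figure D1:**
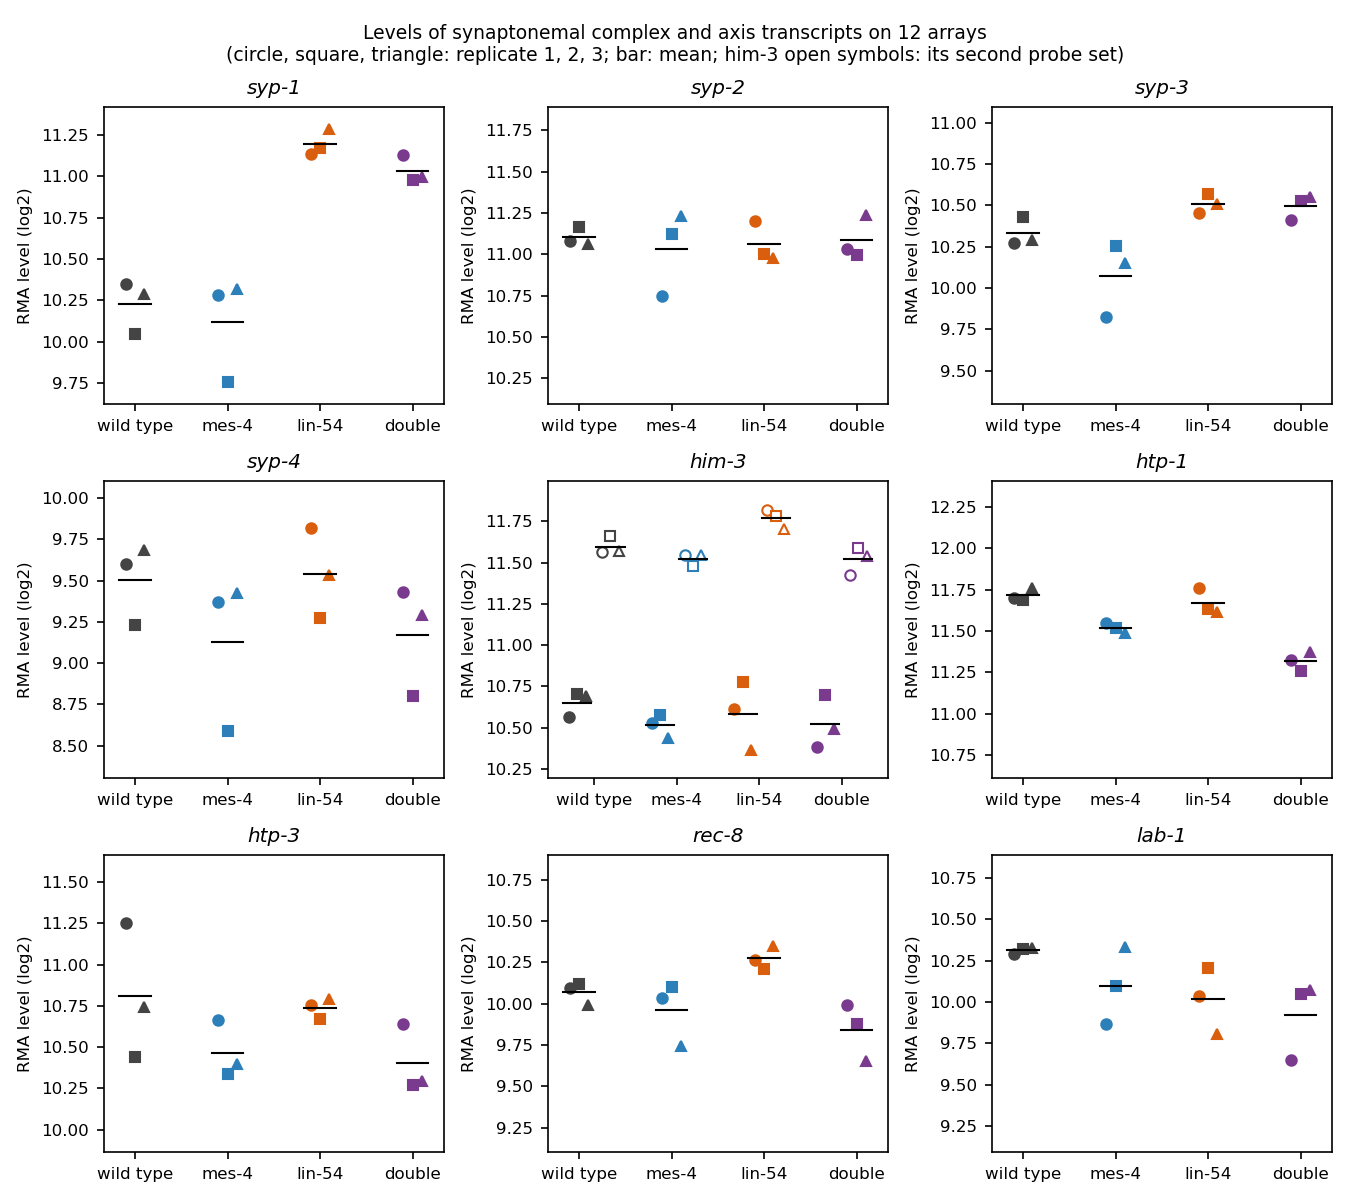
Level (log2, vertical axes, each panel with its own range) of the 9 genes on the 12 arrays, by genotype, with circles, squares and triangles for replicates 1, 2 and 3 and a bar at the mean of 3. The *syp-1* points of *lin-54* and of the double mutant all lie above 10.9, and those of wild type and *mes-4* all below 10.4, whereas the *syp-2* points of all genotypes overlap. Open symbols are the second probe set of *him-3*, and the heights of its 2 probe sets cannot be compared.

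SYP-1 is a coiled-coil protein of the transverse filaments that span the central region. Its transcript measured 10.35, 10.05 and 10.29 in the 3 wild-type samples and 11.14, 11.17 and 11.28 in *lin-54*. In *mes-4* it measured 10.28, 9.76 and 10.32, and in the double mutant 11.13, 10.98 and 10.9968. The 6 samples without LIN-54 were thus all above the 6 samples with it. The rise in *lin-54* over wild type was 0.97 (SE 0.14, 95% interval 0.67 to 1.28), or 1.96-fold (limma q = 0.00350). In the double mutant *syp-1* rose by 0.91 over *mes-4* (SE 0.14, 1.89-fold, q = 0.00258). The rise over wild type was 0.81 (SE 0.14, 1.75-fold, q = 0.00621). In *mes-4* the difference from wild type was -0.11 (95% interval -0.41 to 0.20, q = 0.677), and *mes-4* replicate 2, at 9.76, was the lowest of the 12 arrays. The double mutant lay 0.16 under *lin-54*, and although the 3 samples of each did not overlap, the difference did not pass the test (q = 0.461). For 3 arrays against 3, a permutation test can give no p under 0.1. The share of all genes without overlap was not counted, so overlap is given only as a description. The germlines were whole pieces of tissue, so that more cells expressing a gene and more RNA per cell cannot be told apart, here and for all genes below.

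SYP-2, a partner of SYP-1 in the same filaments, had the flattest transcript of the 9 genes. Its means were 11.10 ± 0.06 in wild type, 11.06 ± 0.12 in *lin-54*, 11.03 ± 0.25 in *mes-4* and 11.09 ± 0.13 in the double mutant (SD, n = 3 each). The 4 means thus spanned 0.07, against a median span of 0.30 over the 3957 one-gene probe sets whose mean was at least as high as that of the lowest of the 9 genes. The 95% interval of the difference between *lin-54* and wild type ran from -0.31 to 0.23, and it did not reach the rise of *syp-1*. *syp-1* and *syp-2* both lie on chromosome V, and the samples were the same.

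SYP-3 is needed for the other SYP proteins to load. The transcript of its gene, on chromosome I, measured 10.27, 10.43 and 10.29 in wild type and 9.82, 10.25 and 10.15 in *mes-4*. It measured 10.46, 10.57 and 10.51 in *lin-54* and 10.41, 10.53 and 10.55 in the double mutant. All 3 *mes-4* samples were under all 3 samples of each other genotype. The double mutant was 0.42 above *mes-4* (SE 0.11, 1.34-fold, q = 0.0284). Neither the difference of *mes-4* from wild type (-0.26, q = 0.210) nor that of *lin-54* from wild type (0.18, q = 0.222) passed the test. The call for *syp-3* was lost when only the compared genotypes entered the model (q = 0.107), and when *mes-4* replicate 1 or 3 or any 1 of the double mutant samples was left out (q from 0.0504 to 0.0941). Without *mes-4* replicate 1, its lowest sample, the difference was 0.30 (q = 0.0730). The same sample had the highest summed level of intestine markers of the 12, and the part of that in the *syp-3* result was not tested.

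SYP-4 is a further coiled-coil protein of the central region. Its transcript had the widest spread of the 9 genes, with a residual SD of 0.34 within genotypes against a median of 0.15 over the probe sets of comparable level. It measured 9.60, 9.23 and 9.68 in wild type, 9.82, 9.27 and 9.53 in *lin-54*, 9.37, 8.59 and 9.43 in *mes-4*, and 9.43, 8.80 and 9.29 in the double mutant. Every genotype overlapped every other. The 95% interval of *lin-54* against wild type was -0.49 to 0.56, which holds changes in either direction.

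HTP-3 is the scaffold to which the other HORMA domain proteins bind. Its transcript measured 11.25, 10.44 and 10.74 in wild type, 10.76, 10.67 and 10.79 in *lin-54*, 10.66, 10.34 and 10.40 in *mes-4*, and 10.64, 10.27 and 10.29 in the double mutant. Wild-type replicate 1 was the highest of the 12 arrays, and the wild-type samples overlapped those of every mutant. The largest difference, -0.41 in the double mutant against wild type (SE 0.18), did not pass the test (q = 0.257).

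HTP-1 binds the axis and couples homolog pairing to synapsis. Its transcript varied least within genotypes, with a residual SD of 0.06. It measured 11.70, 11.69 and 11.76 in wild type and 11.76, 11.63 and 11.61 in *lin-54*. It measured 11.55, 11.52 and 11.49 in *mes-4* and 11.32, 11.26 and 11.37 in the double mutant. The double mutant was the lowest genotype, *mes-4* came next, and neither overlapped any other genotype, while wild type and *lin-54* overlapped. In the double mutant *htp-1* fell by 0.40 relative to wild type (SE 0.07, 0.758-fold, limma q = 0.00627). It fell by 0.35 relative to *lin-54* (SE 0.07, 0.783-fold, q = 0.0146). The differences of *mes-4* from wild type (-0.20, q = 0.130) and of the double mutant from *mes-4* (-0.20, q = 0.0888) were of equal size and did not pass. The call against *lin-54* was lost when arrays were centred on autosomal genes (-0.29, q = 0.0786), when only the compared genotypes were fitted (q = 0.0825), and without double mutant replicate 2 (-0.32, q = 0.0601). The near-identical paralog *htp-2*, also on chromosome IV, had a one-gene probe set of its own, with means of 10.29 ± 0.11 in wild type, 10.37 ± 0.08 in *lin-54*, 10.34 ± 0.20 in *mes-4* and 10.18 ± 0.15 in the double mutant, and no comparison of it passed the test. How far transcripts of the paralogs bind each other's probes was not tested.

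HIM-3 is the axis protein through which the central region is attached. Its 2 probe sets disagreed. In the one listed for *him-3* that is of the shared type, whose probes may match more than 1 transcript, the mean was 11.60 ± 0.05 in wild type, 11.77 ± 0.06 in *lin-54*, 11.52 ± 0.04 in *mes-4* and 11.52 ± 0.08 in the double mutant. There *lin-54* was above all other genotypes without overlap, by 0.17 over wild type (q = 0.124) and with the double mutant 0.25 lower (q = 0.0825). In the other probe set the corresponding differences were -0.07 and -0.06, and the samples overlapped. Neither probe set passed the test in any comparison.

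REC-8 is a kleisin of meiotic cohesin. Its transcript measured 10.10, 10.12 and 9.99 in wild type, 10.27, 10.21 and 10.35 in *lin-54*, 10.04, 10.10 and 9.75 in *mes-4*, and 9.995, 9.88 and 9.65 in the double mutant. The *lin-54* samples were the highest and overlapped no other genotype. The double mutant was 0.43 under *lin-54* (SE 0.11, 95% interval -0.67 to -0.19), which narrowly missed the threshold (q = 0.0541). It crossed it without double mutant replicate 1 (-0.51, q = 0.0452) or without *mes-4* replicate 3 (-0.43, q = 0.0255). With all samples it also crossed it under 3 further settings of the fit or of the probe sets (q from 0.0408 to 0.0472).

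LAB-1 is bound to the long arms of bivalents and protects cohesion there. Its wild-type samples lay close together, at 10.29, 10.32 and 10.33. It measured 10.04, 10.21 and 9.81 in *lin-54*, 9.87, 10.09 and 10.33 in *mes-4*, and 9.65, 10.05 and 10.07 in the double mutant. The *lin-54* and double mutant samples were all under the wild-type samples, whereas *mes-4* reached the wild-type level in replicate 3. The differences from wild type were -0.30 in *lin-54* (q = 0.173), -0.22 in *mes-4* (q = 0.478) and -0.39 in the double mutant (q = 0.173), and none passed.

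**Figure D2:**
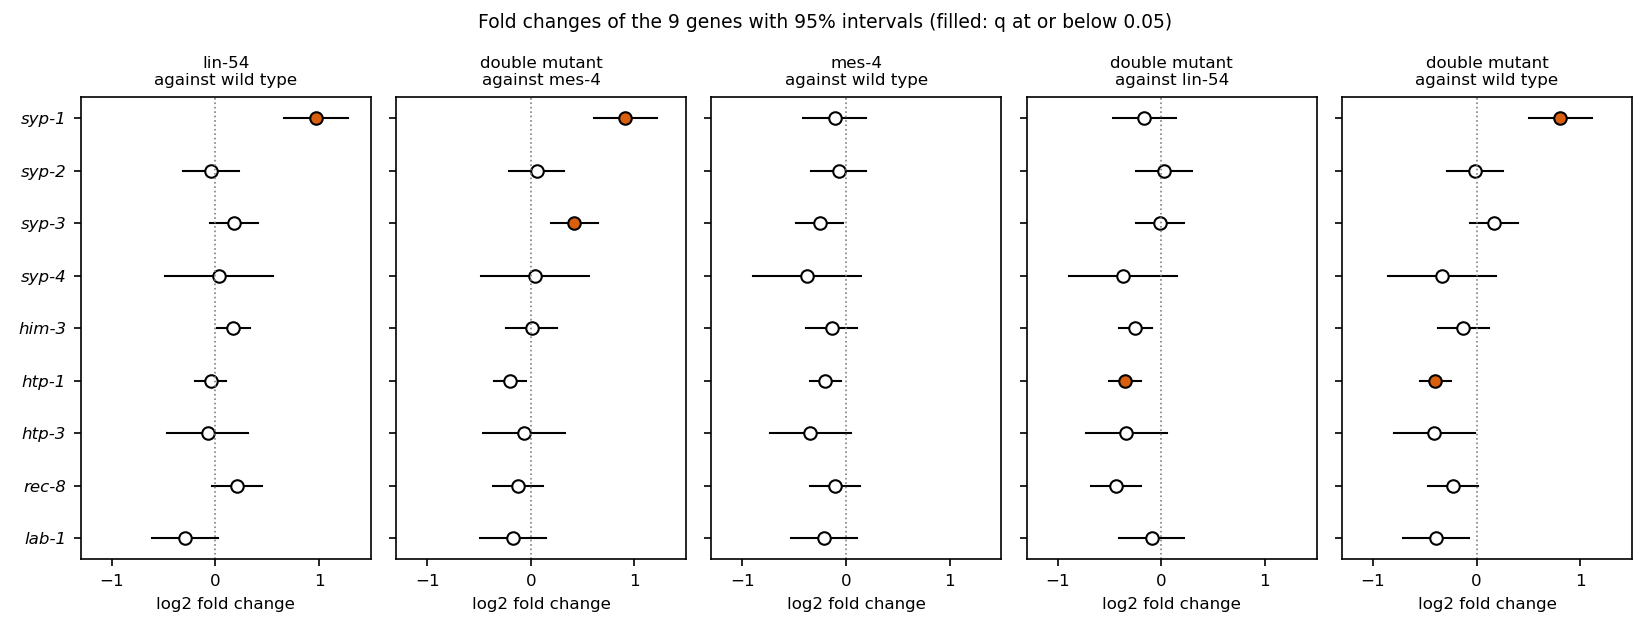
Log2 fold change (horizontal axes) of the 9 genes in the 5 pairwise comparisons, with 95% intervals as lines and filled points where q was at or below 0.05. The *syp-1* point lies between 0.81 and 0.97 in the 3 comparisons that differ in LIN-54, and all points of *mes-4* against wild type lie to the left of 0.

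Set beside all genes, the counts were as follows, with a gene called where its most significant one-gene probe set had q at or below 0.05. In *lin-54* against wild type 1 of the 9 genes was higher and none lower, where 2.58% of 17085 genes were called higher and 3.47% lower. The median difference of the 9 genes was 0.04, and that of all genes 0.06. In the double mutant against *mes-4* 2 of the 9 were higher and none lower, against 2.41% and 5.36% of all genes, with medians of 0.01 and 0.05. The median of the 9 thus sat near the median of all genes in both comparisons. Beside *syp-1*, the differences in *lin-54* ran from -0.30 for *lab-1* to 0.21 for *rec-8*.

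In *mes-4* against wild type none of the 9 was called by limma, where 4.04% of all genes were called higher and 1.95% lower. All 9 nevertheless had a lower mean, from -0.38 for *syp-4* to -0.07 for *syp-2*, and 2 of them, *syp-3* and *htp-1*, had an unadjusted p under 0.05, as did 2770 of all genes. The median of the 9 was -0.20, and that of all genes was -0.05. In the lists given below, 19 of 23 recombination genes (median -0.12) and 8 of 10 cohesin genes (-0.14) also had a lower mean. So had 9 of 14 regulators of pairing and synapsis (-0.13), 5 of 10 genes of bivalent cohesion (-0.01) and 2 of 5 further central region and axis genes (0.02). With 1 array left out the difference reached 0.07 for *syp-1* and for *syp-2*. In the double mutant against *lin-54* 8 of the 9 had a lower mean, with a median of -0.25 against -0.06 over all genes. That median was the value of *him-3* in its shared-type probe set, whereas its other probe set gave -0.06. Of the 9 genes 1 was called lower and none higher, where 1.14% of all genes were called lower and 1.79% higher. The comparisons of *mes-4* with wild type and of the double mutant with *lin-54* use different arrays. Samples of the same replicate number can nevertheless not be taken as unrelated, as described at the end. The exception was *syp-2*, which differed by 0.03 between the double mutant and *lin-54*.

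The double mutant against wild type, which shares arrays with the comparisons above, gave 1 gene higher (*syp-1*) and 1 lower (*htp-1*), against 2.14% and 2.85% of all genes, and 7 of the 9 had a lower mean. The median of the 9 was -0.23, and that of all genes -8e-04. Whether the loss of MES-4 acted differently with and without LIN-54 was tested as an interaction. None of the 9 genes was called by limma, all at q = 0.9998, and none had an unadjusted p under 0.05, where 0.0234% of all genes were called higher and 0.0117% lower and 879 had an unadjusted p under 0.05. The interaction for *syp-1* was -0.06 (95% interval -0.49 to 0.37). That for *rec-8* was -0.33 (95% interval -0.67 to 0.02), the largest of the 9.

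Transcripts that mark other cell types or stages also differed between genotypes. Of 29 sperm markers, most of them major sperm protein genes, 12 were called higher in *lin-54* than in wild type. In the double mutant 20 were called higher against *mes-4*, and 16 against wild type. In *lin-54* 28 of the 29 had a higher mean than in wild type and 1, *spe-41*, a lower one (6.99 against 7.18). The markers outside the major sperm protein genes moved less, such as *spe-9* (6.48 to 6.54) and *gsp-3* (6.18 to 6.87). The median level of the 29 per sample was 6.35 to 6.52 in wild type and 6.20 to 6.51 in *mes-4*. It was 6.99 to 9.65 in *lin-54* and 7.47 to 9.63 in the double mutant. The summed linear level of the 29 ran from 2333 to 2934 in the 6 samples with LIN-54 and from 4175 to 34440 in the 6 without it. Of 10 late oocyte markers 6, 8 and 7 were lower in the same comparisons. Of 11 markers of proliferating germ cells 3, 5 and 3 were lower. Of 8 markers of the gonadal sheath and somatic gonad, 2 were lower in the same comparisons, *inx-8* and *tbh-1*, which fell by 2.46 and 3.47 in *lin-54* relative to wild type (q = 0.00198 and 0.000438). The other 6 were not called, 4 of the 8 had a higher mean in *lin-54* than in wild type, and the median over the 8 was -0.05 there and 0.07 in the double mutant against *mes-4*. The summed level of the 8 was 1954 to 3101 in the samples with LIN-54 and 671 to 1184 in those without, whereas their median level in the double mutant, 6.49 to 6.62, lay within the range of wild type, 6.47 to 6.64. None of these marker genes was called in *mes-4* against wild type or in the double mutant against *lin-54*.

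The *syp-1* level is given here beside the sperm marker level of the same samples. In *lin-54* replicate 2, where sperm markers had a median of 6.99, *syp-1* measured 11.17, and in *lin-54* replicate 1, where they had a median of 9.65, it measured 11.14. *lin-54* replicate 2 was also the sample of its genotype with the most signal of the targeted gene, with a *lin-54* level of 7.76 against 6.40 and 6.32 in replicates 1 and 3. In the double mutant the corresponding pair was 10.98 at 7.47 (replicate 2) and 11.13 at 9.63 (replicate 1). With replicate 2 as the sole sample of *lin-54* and of the double mutant, a setting chosen after seeing the data, *syp-1* was 0.94 above wild type in *lin-54*. In the double mutant it was 0.86 above *mes-4*. A single array has no spread of its own, so only the sizes of these 2 differences are given, and no call rests on them. Sperm markers were still raised there, with summed levels of 4175 in *lin-54* replicate 2 and 6481 in double mutant replicate 2, against at most 2934 in samples with LIN-54. The median of the late oocyte markers was lower in all 6 samples without LIN-54 than in any sample with it. The part of sperm, late oocyte, proliferating germ cell and sheath transcripts in the *syp-1* result was not tested.

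**Figure D3:**
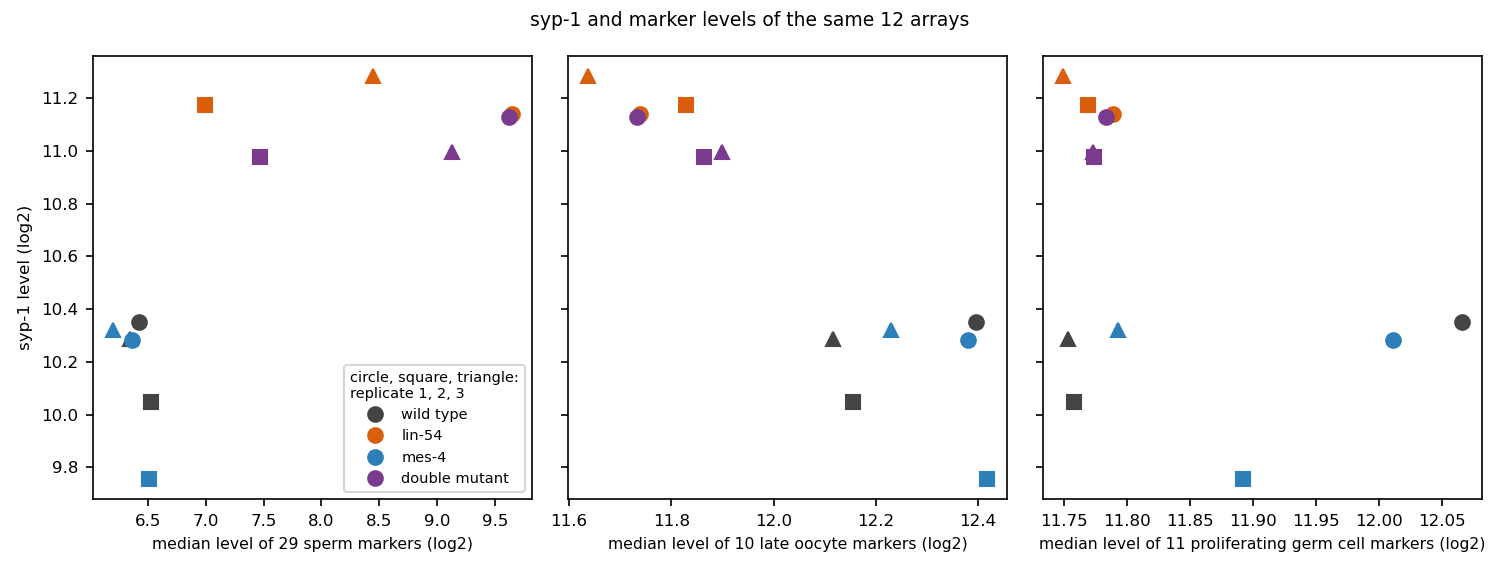
Level of *syp-1* (log2, vertical axis) on the 12 arrays against the median level (log2) of 29 sperm, 10 late oocyte and 11 proliferating germ cell markers, coloured by genotype and shaped by replicate. At sperm marker medians from 6.99 to 9.65 the 6 samples without LIN-54 have *syp-1* levels between 10.98 and 11.28.

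Samples of 1 genotype also differed from each other in ways that, for some of the 9 genes, recurred across genotypes. The replicate 2 sample was the lowest of its genotype for *syp-4* in 4 of 4 genotypes, by 0.27 to 0.54 under the genotype mean. It was the lowest for *htp-3* in 4 of 4 as well, by 0.07 to 0.37. For *syp-3* the lowest sample was replicate 1 in 4 of 4 genotypes, by 0.06 to 0.25. Replicate 2 was instead the highest for *syp-3* and for *him-3* (mean of its probe sets) in 3 of 4 genotypes. The share of all genes that recur in this way was not counted. *htp-1* stayed within 0.09 of its genotype mean in every sample. What the replicate numbers stand for is not given in the sources used here.

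**Figure D4:**
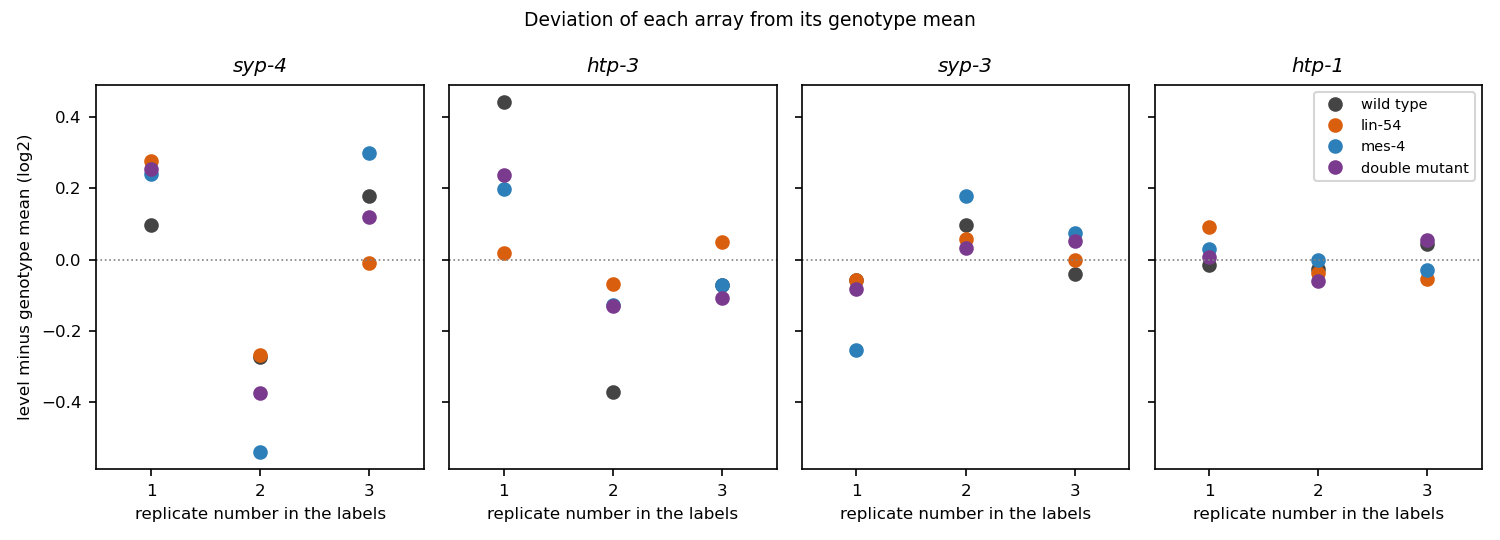
Level minus the genotype mean (log2, vertical axis) for *syp-4*, *htp-3*, *syp-3* and *htp-1* by the replicate number in the labels, 1 point per genotype. Points of replicate 2 all lie under 0 for *syp-4* and *htp-3*, and those of replicate 1 all lie under 0 for *syp-3*.

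The 9 genes did not vary as 1 set. Across the 12 samples the correlation of each with the mean of the other 8 ran from -0.09 (*lab-1*) to 0.55 (*syp-4*), as a description over samples that share genotypes and replicate numbers. The genes whose levels were most like the mean of the 9 were *eri-5* (r = 0.96), *polg-1* (0.96), Y54E5A.2 (0.96), ZC262.2 (0.95) and ZK1025.1 (0.94), all over 12 samples. The gene most like *syp-1* was R107.2 (r = 0.95), the one most like *syp-3* was F07H5.10 (0.96), and the one most like *htp-1* was *dnj-26* (0.97). All of these were picked for the highest r among 17085 genes, so the size of r partly reflects that choice and was not tested.

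Other genes of the same process were read from lists. Of 5 further central region and axis genes, *htp-2*, *syp-5* and *syp-6* passed the test in no comparison. *skr-1* and *skr-2* encode Skp1-related proteins known both from ubiquitin ligases and from the central region. *skr-1* measured 10.56, 10.66 and 10.37 in wild type and 11.19, 11.20 and 11.20 in *mes-4*, a rise of 0.66 (SE 0.10, q = 0.00303). In the double mutant *skr-1* was 0.70 above wild type (SE 0.10, q = 0.00245). *skr-2* rose by 0.29 in *lin-54* over wild type (q = 0.0466) and by 0.28 in the double mutant over *mes-4* (q = 0.0428). Its mean was 11.74 in wild type and 11.98 in the double mutant, and that difference did not pass the test. In *lin-54* the *skr-1* mean was 10.83 ± 0.10, and its difference from wild type did not pass the test.

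Of 10 cohesin subunits and loading factors only *coh-1* was called, an X-linked kleisin, which was 1.94 higher in *mes-4* than in wild type (SE 0.42, q = 0.0183) and 1.75 higher in the double mutant than in *lin-54* (q = 0.0422), in its most significant probe set. Averaged over its probe sets *coh-1* rose less, from 5.24 in wild type to 6.38 in *mes-4*. The averages were 5.02 in *lin-54* and 5.96 in the double mutant. These levels lay around or under the array medians of 5.81 to 5.93, apart from that of *mes-4*. Of 14 regulators of pairing and synapsis, *him-19* (-0.62, q = 0.0239) and *zim-2*, a zinc finger protein of pairing centers (-0.49, q = 0.0119), were lower in *mes-4* than in wild type. In the same list *pch-2*, an ATPase that acts on HORMA domain proteins, fell by 0.30 between *mes-4* and the double mutant (q = 0.0276), and *akir-1*, an akirin, fell by 0.63 between wild type and the double mutant (q = 0.0243). Averaged over its probe sets *akir-1* fell less, from 11.74 in wild type to 11.37 in the double mutant. Of 10 genes of bivalent cohesion and separation, *icp-1*, the INCENP homolog, and *ify-1*, the securin homolog, fell by 0.67 and 0.36 in the double mutant relative to wild type (q = 0.0129 and 0.0242), and no other comparison had a call.

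Of 23 recombination genes none was called higher in any comparison. In *lin-54* against wild type *dsb-1*, needed for meiotic double-strand breaks, fell by 0.55 (q = 0.0169), *him-17*, a chromatin factor for the same breaks, fell by 0.41 (q = 0.0422), and *him-14*, the MSH4 homolog, fell by 0.87 (q = 0.0300). Of these *him-17* and *him-14* also fell in the double mutant relative to wild type, *him-17* by 0.42 (q = 0.0496) and *him-14* by 1.21 (q = 0.00631). The median difference of the 23 genes was -0.05 in *lin-54* and -0.16 in the double mutant against wild type, where the medians of all genes were 0.06 and -8e-04.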

How the data were processed

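The values analysed were the deposited log2 expression values of 12 arrays, which the authors made with RMA (background correction, quantile normalization and probe set summary) using the affy package. They hold 22548 probe sets beside 77 control probe sets, which were left out, and range from 3.05 to 14.6. The platform annotation gave 20766 probe sets 1 gene, 887 several and 895 none. Of the former, 20701 matched a current RefSeq entry, for 17085 genes. Differences were tested with limma (version 3.58.1 in R 4.3.3) on all 12 arrays, each genotype having its own mean. For every comparison Storey q values were taken over all probe sets (lambda 0 to 0.9 in steps of 0.05, spline with 3 degrees of freedom), and a gene was called at q at or below 0.05 in its most significant one-gene probe set. The methods of the study name the same threshold and choice of probe set. Array levels have no counting depth, and the number of arrays limits precision. Levels of different probe sets were not compared. The labels only number the replicates, and the methods of the study name 3 biological replicates per strain. The 9 genes, the companion lists and the marker lists were chosen with earlier results of these data known. All 9 genes were named, with up to 4 called genes per companion list and comparison, the targeted genes and *htp-2*. Levels given for companion genes are means over a gene's probe sets. The script was tested on simulated data. Alternatives were Benjamini-Hochberg adjustment, a replicate block, only the compared genotypes, gene values averaged over probe sets, no shared probe sets, only probe sets above the median, autosomal centring, a trended robust prior, and each array left out.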

Additional observations from a re-analysis of the deposited data

How the results depend on the processing

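Among 1053 values of single genes under these alternatives, 9 lost their call, 5 gained one and none that was called changed sign. *syp-1* stayed called in each of these alternatives in *lin-54* against wild type, the double mutant against *mes-4* and the double mutant against wild type, as did *htp-1* in the last. The count of called genes for the double mutant against *mes-4* (2) became 1 with only the compared genotypes and 1 without shared probe sets, where 6 of the 9 genes were measured, and 1 to 2 with 1 array left out. That for the double mutant against *lin-54* (1) became 2 with the replicate block, 2 with gene values averaged over probe sets, 2 with probe sets above the median level, 0 with only the compared genotypes, 0 with autosomal centring, and 0 to 2 with 1 array left out. The setting with replicate 2 alone in *lin-54* and the double mutant was chosen after seeing the data and is not counted here. With all arrays, 441 and 593 of all genes were called higher and lower in *lin-54* against wild type. Counts over all genes moved more: with 1 array left out, between 79 and 564 were called higher and between 143 and 805 lower in *lin-54* against wild type, the fewest without wild-type replicate 1 (79) and *lin-54* replicate 3 (143). Under the other alternatives these were 168 to 628 and 359 to 792. The interaction was not run with only the compared genotypes, since it needs all 4.

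The main fit did not pair samples by replicate number. Deviations from the genotype means correlated above 0.1 in 9 of 18 same-numbered pairs of arrays, which ranged from -0.07 to 0.43. Among other pairs 3 of 36 did so, and 11 of 12 arrays correlated best with one of their own number. The paper states that the genotypes were collected and analysed in parallel. Same-numbered samples can therefore not be taken as unrelated, and what they share was not tested. With the replicate block *rec-8* passed in the double mutant against *lin-54* (-0.43, q = 0.0408), and no other call among the 9 genes changed. Autosomal centring moved the share of called genes that were higher from 42.6% to 17.5% in *lin-54* against wild type and from 61.0% to 78.7% in the double mutant against *lin-54*.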
